A study of Mus musculus with 9 samples.

Results

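The regions described here are the m6A peaks that were called in wild-type replicate 2 of mouse embryonic stem cells (mESCs) and that no wild-type replicate 1 peak overlapped by 1 bp or more. They numbered 400 of the 5040 peaks of replicate 2, which is 7.94% (95% exact binomial interval 7.20 to 8.72%), and the other 4640 replicate 2 peaks overlapped at least 1 of the 22531 peaks of replicate 1. Both lists together held 27571 peaks. The share rests on the longer replicate 1 list and on the overlap chosen. It was 44.4% (2238 peaks) with replicate 1 limited to as many of its strongest peaks as replicate 2 has, 42.1% when 50% of each peak had to be covered, 31.2% with a fold enrichment of at least 4 required in both lists and 25.4% when summits had to lie within 100 bp. The regions were chosen by the measured positions of the peaks in both lists, so that each has no value in replicate 1 by definition, and everything below is a description of them without a test. They are called replicate 2-only peaks in what follows, and the remainder of the list is called the shared replicate 2 peaks.

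The series compared m6A-RIP-seq libraries of mESCs that were wild type or lacked Mettl3 or Zc3h13, with 2 immunoprecipitations (IPs) and 1 input for each genotype, or 9 libraries in all. All of these cells, the wild type included, carried the Rosa26:CRE and Bir ligase background and were grown in serum with LIF, and no time course or drug treatment separated them. Only the 2 peak lists of the wild-type IPs were analysed here, and the other 7 libraries were not analysed here. In the assay, poly(A) RNA was pulled down with an antibody against N6-methyladenosine, digested on the beads, sequenced and compared with input. Both wild-type IPs came from the same genotype and the labels do not say that they were separate cultures, so the spread between them may be technical. The peak names in the replicate 1 list do not mention wild-type cells whereas those of replicate 2 do, and the replicates were assigned by their sample labels.

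N6-methyladenosine is a methyl mark that a nuclear enzyme complex built around Mettl3 and Mettl14 places on adenosines of mRNA and of long non-coding RNA, mostly within a short GGAC-type context. In mRNA it is known to be enriched near stop codons and in long internal exons. In embryonic stem cells the mark is known for shortening the lifetime of transcripts that encode pluripotency and lineage factors. An m6A-RIP-seq peak is a stretch where antibody-bound fragments outnumber those of the input, and its height depends on the share of molecules that carry the mark as well as on how well the transcript was sampled.

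A handful of replicate 2-only peaks covered sequences that the RefSeq tables of GRCm38.p6 hold. They are shown because they let the letters under a peak be read; for the remaining peaks no sequence was used here. Of the 400 peaks, 8 (2.00%) overlapped a promoter window, defined as the 250 bases before to the 50 bases after an annotated start, compared with 241 (5.19%) of the shared replicate 2 peaks. The summit lay inside such a window for 0 of the 400 peaks, compared with 61 (1.31%) of all 4640 shared peaks. A single replicate 2-only peak (0.25% of 400) overlapped a miRNA whose hairpin sequence was listed, compared with 7 (0.151%) of the 4640 shared peaks. For Mir1906-1 only the mature sequence was found, although its gene body of 80 bp also lies inside a replicate 2-only peak. The count of hairpins may thus be too low. The peak at chr4:129684386-129684702 lay over the hairpin of Mir7016 at chr4:129684500-129684571 on the minus strand, inside the gene Tmem39b, with the summit at position 129684530. The peak at chr12:109544400-109544803 in the long non-coding RNA Meg3 covered the mature miR-1906 at chr12:109544588-109544609 on the plus strand. Capitals mark GGAC in the hairpin and the seed (bases 2 to 8) in the mature miRNA.
Mir7016 hairpin: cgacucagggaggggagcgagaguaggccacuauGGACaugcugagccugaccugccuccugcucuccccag
mmu-miR-1906: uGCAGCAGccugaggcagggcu

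The Mir7016 region had a fold enrichment of 7.26 with −log10 q at 8.03 in replicate 2, and the nearest replicate 1 peak was 36104 bp away. The Meg3 region reached 10.8 and 14.3. Fold enrichment is the ratio of IP to background at the summit and −log10 q is the strength of the call after correction for multiple testing, both as given by MACS2. GGAC was searched as GGAC on the strand of the gene and as its complement GTCC (GUCC in RNA). The hairpin held 1 GGAC and 0 GUCC.

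Among the 8 promoter windows, GGAC was found on the gene's strand in 3. They are shown to place the peak edges relative to the annotated starts, with GGAC in capitals. The stretch under the peak of Rnpep, an aminopeptidase gene, spans chr1:135284035-135284176 on the minus strand, from base −92 to base 49 counted from the start. That of Slco2a1, which encodes a prostaglandin transporter, spans chr9:103008237-103008308 on the plus strand, from base −250 to base −179. That of Gm44570 spans chr7:81610034-81610175 on the plus strand, from base −92 to base 49. The same peak also lies at Homer2, whose product is a postsynaptic scaffold. The GGAC of Rnpep and of Slco2a1 lies before the start used for its window, and that of Gm44570 after it.
Rnpep: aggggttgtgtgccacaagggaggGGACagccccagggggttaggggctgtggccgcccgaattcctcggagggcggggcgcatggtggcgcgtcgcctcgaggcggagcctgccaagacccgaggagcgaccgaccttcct
Slco2a1: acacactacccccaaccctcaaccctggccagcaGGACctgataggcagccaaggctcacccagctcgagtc
Gm44570: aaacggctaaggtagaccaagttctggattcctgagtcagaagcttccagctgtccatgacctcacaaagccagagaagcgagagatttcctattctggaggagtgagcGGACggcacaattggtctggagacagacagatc

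Of all promoter windows, 41.4% held GGAC in the stretch that corresponds to those of Rnpep and Gm44570 and 22.5% in that of Slco2a1, so these matches are common in such stretches. The Gm44570 stretch also held 1 GTCC. The other 5 windows (Dcaf7, Znhit1, Zfp428, Cfap20 and Cmip) shared 38 to 104 bases with a peak and held neither word.

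The strongest peak of the whole replicate 2 list had no counterpart in replicate 1. It lay at chr12:109571142-109571667, at the end of Meg3 and inside the body of Rtl1, with Mir673 within 500 bp, and it had the highest fold enrichment (28.4) and the highest −log10 q (54.2) of all 5040 peaks. Meg3 is a maternally expressed long non-coding RNA of the imprinted Dlk1-Dio3 locus, and Rtl1 is a retrotransposon-derived gene expressed from the paternal copy. In replicate 1 the nearest peak was 4490 bp away.

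In the same locus, replicate 2 listed 4 peaks at Rian, another maternally expressed long non-coding RNA, and replicate 1 listed 0. They lay at chr12:109645641-109646134 with a fold enrichment of 9.41, at chr12:109646193-109646495 with 6.53, at chr12:109650140-109650503 with 5.98 and at chr12:109660575-109661209 with 15.9. The −log10 q values were 11.4, 6.43, 4.88 and 24.4 in that order. All were replicate 2-only peaks, and the third also covered or neighboured the small nucleolar RNAs DQ267100 and AF357359. The last, at the downstream end of the gene, was the third strongest of the 400 and lay 69017 bp from the nearest replicate 1 peak.

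Meg3 itself was called in both replicates, but at different heights. Replicate 1 had 3 peaks there with fold enrichments of 2.17, 1.40 and 1.78 and −log10 q of 32.5, 7.55 and 20.2. Replicate 2 had a single peak 4286 bp wide over the same stretch, the widest of its list, with a fold enrichment of 21.4 (−log10 q 40.1.) The replicate 2-only peak that covers miR-1906 lay 888 bp upstream of the nearest replicate 1 peak.

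The values at Rtl1 outside Meg3 were closer together. Its 2 replicate 1 peaks had fold enrichments of 5.30 and 10.8, and the replicate 2 peaks over them had 4.93 and 11.1. The higher site also lay at Mir431, 6430411K18Rik and Mir433, so it cannot be given to Rtl1 alone. Other places of the locus were called in replicate 1 and not in replicate 2, among them 5 peaks at Gm34081, 1 at Mir382, Mir134 and Mir668 with a fold enrichment of 11.6, 1 with no gene nearby at chr12:109948817-109950422 with 13.8, 1 at Gm40576 with 4.87 and 1 at Dio3, a deiodinase gene, with 24.8. Of the 7 genes listed for the locus, 3 had a replicate 2 peak and 3 had a replicate 1 peak. The 3 with a replicate 2 peak (Meg3, Rtl1 and Rian) all held a replicate 2-only peak. The one counted for Rtl1 is the peak at the end of Meg3, which is counted for both genes. No expression values were used here, so less of a transcript and less methylation of it cannot be told apart in any of these comparisons.

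**Figure D1:**
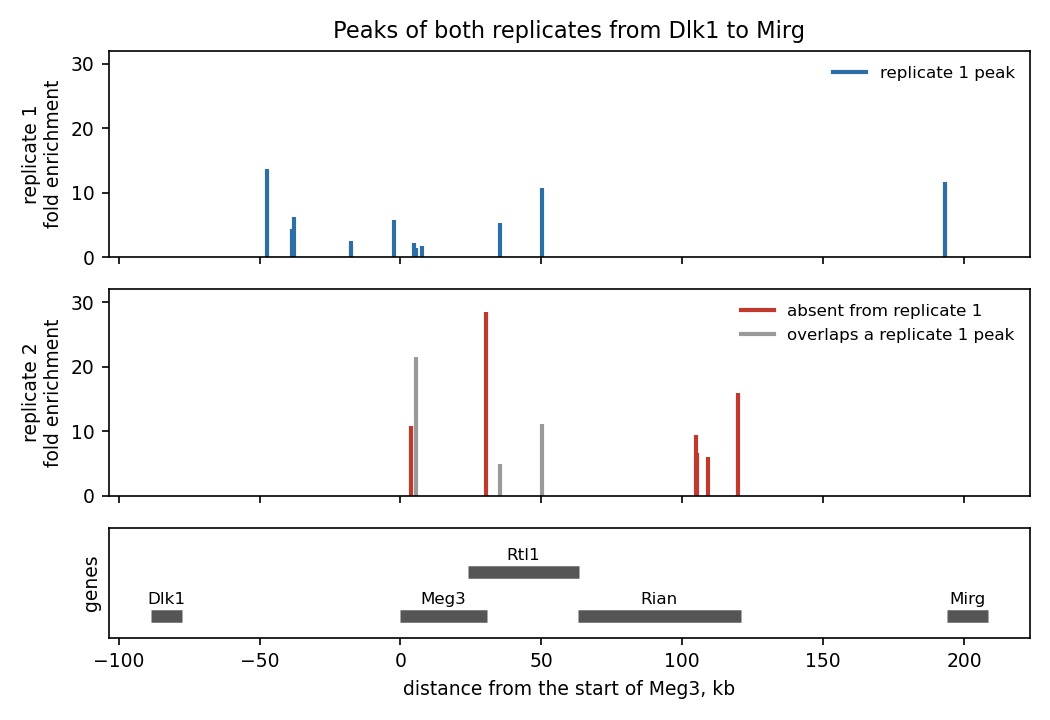
Peaks of both replicates from Dlk1 to Mirg in the imprinted locus. Lines stand at peak summits and their height is the fold enrichment over input, the lower track shows gene bodies, and the x axis is the distance from the start of Meg3 in kb. The replicate 2-only peaks at the end of Meg3 (28.4) and along Rian (5.98 to 15.9) face no line in the replicate 1 track.

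Outside this locus the strongest replicate 2-only peaks lay in protein-coding genes of unrelated roles. The same 10 peaks led by −log10 q and by fold enrichment. After Meg3, the peak with the highest −log10 q lay at Fndc10, a gene for a fibronectin type III domain protein, at chr4:155695878-155696400 with a fold enrichment of 16.0 (−log10 q 26.4.) It lay only 181 bp from a replicate 1 peak with a fold enrichment of 5.12 (−log10 q 128.1), and replicate 2 had its own peak over that one with 19.3 and 33.6. The Fndc10 region was therefore a neighbour of a site called in both replicates.

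Ftsj1, which encodes a tRNA methyltransferase, was the opposite case. Its peak at chrX:8240464-8241031 had a fold enrichment of 13.8 with −log10 q at 20.5, a further replicate 2-only peak at the gene had 6.02, and the gene had 0 replicate 1 peaks, the nearest being 54518 bp away. Doc2a, for a calcium sensor of vesicle release, shares its peak with Ino80e, for a subunit of the INO80 chromatin remodeller. That peak at chr7:126851662-126852081 reached 12.4 and 19.1, with the nearest replicate 1 peak at 14515 bp. Neither gene had a replicate 1 peak.

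Abcf3, an ATP-binding cassette protein gene, followed with 12.8 and 17.0 at chr16:20560340-20560803. Depdc5, for a subunit of the GATOR1 complex that restrains mTORC1, had 12.1 and 16.9 at chr5:32990778-32991301. Bckdk, for the kinase that inactivates branched-chain ketoacid dehydrogenase, had 12.1 and 16.4 at chr7:127904690-127905092. These 3 genes had 0 replicate 1 peaks, and the nearest lay 13970, 50918 and 19018 bp away.

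The last pair of the leading 10 each had a host gene that was called elsewhere in replicate 1. Miip, for an inhibitor of cell migration, had a peak of 12.4 and 17.3 at chr4:147865778-147866187, with a site called in both replicates 2803 bp away at 3.29 in replicate 1 and 14.1 in replicate 2. The peak at chr13:13998354-13998860, where B3galnt2 (a glycosyltransferase) and Tbce (a tubulin folding cofactor) overlap, had 12.1 and 15.3. B3galnt2 had 3 replicate 1 peaks, the nearest of which lay 21704 bp away, and Tbce had 0.

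**Figure D2:**
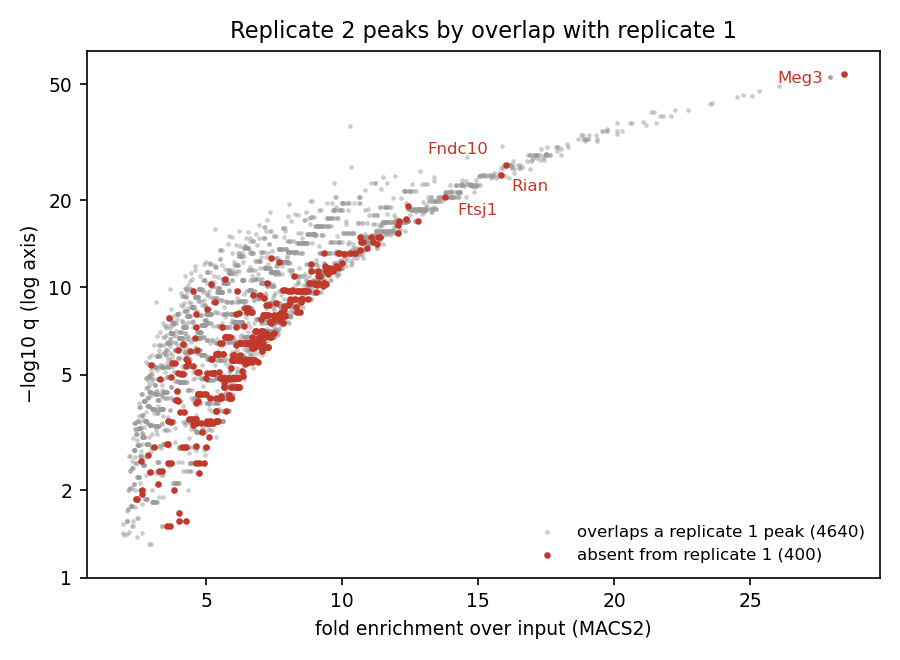
Fold enrichment over input (x axis) against −log10 q on a log axis (y axis) for the 5040 replicate 2 peaks as called by MACS2, with the 400 replicate 2-only peaks in red and the 4640 shared peaks in grey. The red points run along the lower edge of the cloud, and a single one, at Meg3, stands at its upper end.

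As a group, the replicate 2-only peaks had a median height close to that of the shared peaks and lower medians of width and −log10 q. The median fold enrichment was 6.39 (quartiles 5.28 and 7.66, range 2.43 to 28.4), against 6.35 (4.73 and 8.39) for the shared replicate 2 peaks. The former was the lower under other settings, with 6.22 against 7.13 at a fold enrichment of at least 4 in both lists and 6.26 against 6.53 with replicate 1 limited to an equal number of peaks. The median −log10 q was 6.43 (4.88 and 8.29) against 7.63 (5.02 and 11.4). The median width was 361 bp (321 and 435) against 458 bp (357 and 639). The quartiles of both groups overlapped in each measure.

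The upper tails differed more than the medians. A fold enrichment of 10 or more was found for 23 replicate 2-only peaks (5.75%, 3.68 to 8.50%) and for 661 shared peaks (14.2%, 13.3 to 15.3%). A −log10 q of 20 or more was reached by 4 (1.00%) and by 248 (5.34%). A fold enrichment of 4 or more was found for 367 (91.8%) and for 84.6% of the shared peaks, so that the replicate 2-only peaks were also scarcer among the lowest ones. The shortest width in the list, 300 bp, occurred in 21 of them (5.25%) and in 48 shared peaks (1.03%).

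Ordered by width, the share of replicate 2 peaks that was absent from replicate 1 went from 17.5% in the narrowest decile to 0.397% (2 of 504 peaks) in the widest. Ordered by −log10 q it was 9.33% in the lowest decile, 12.9% in decile 3 and 1.79% in the highest. Ordered by fold enrichment it was lower at both ends, with 3.17% in the lowest decile, 12.3% in decile 5 and 2.98% in the highest. A wide peak has more room to overlap another, so the widths are a part of how the regions were chosen.

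**Figure D3:**
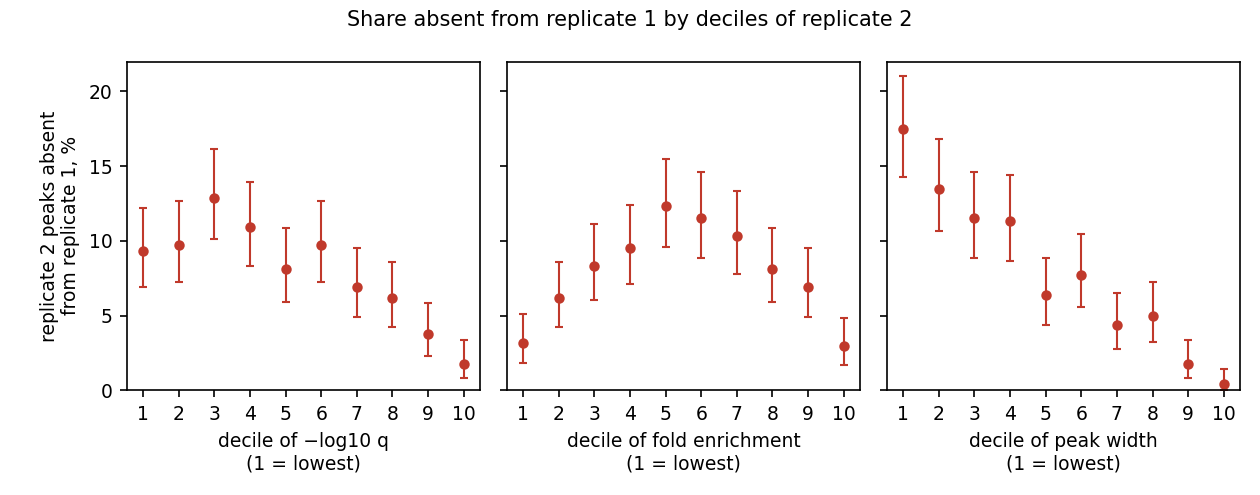
Share of replicate 2 peaks absent from replicate 1 (y axis, percent) by deciles of the list ordered by fold enrichment, −log10 q or width (x axis, lowest to highest); bars are 95% exact binomial intervals for the counts. The share is highest for the narrowest peaks (17.5%) and lowest for the widest (0.397%).

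Most replicate 2-only peaks lay more than 2000 bp from any replicate 1 peak along the genome. This distance includes introns, and replicate 1 signal too weak to be called a peak was not examined. The median gap to the nearest replicate 1 peak was 9724 bp, with quartiles of 2014 and 29206 bp and a largest gap of 1154837 bp. It was 15445 bp at the fold limit of 4 and 40417.5 bp with the equal number of replicate 1 peaks. A gap of up to 500 bp was found for 45 (11.2%, 8.33 to 14.8%), a gap of 500 to 2000 bp for 54 (13.5%), of 2000 to 10000 bp for 108 (27.0%), of 10000 to 100000 bp for 164 (41.0%) and above 100000 bp for 29 (7.25%). Between summits the median was 10051.5 bp, and the closest pair of summits was 403 bp apart.

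Near the limit of the choice, the smallest gaps included 74 bp at Dennd2a, 114 bp at Ubr2, 130 bp at Kcnj3 and 144 bp at Tap1. Dennd2a encodes a Rab regulator, Ubr2 a ubiquitin ligase, Kcnj3 a potassium channel and Tap1 a peptide transporter of antigen presentation. Their fold enrichments were 5.85, 8.78, 4.99 and 7.76 in that order.

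On the other side, the shared replicate 2 peaks with the least overlap had 132 bp in common with replicate 1 at Zmiz1, 156 at Hps1, 160 at Slc34a3, 179 at Wscd2 and 190 at Zfp358. Their fold enrichments were 4.31, 5.48, 5.24, 7.13 and 3.97. Between an overlap of 132 bp and a gap of 74 bp there was no replicate 2 peak.

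**Figure D4:**
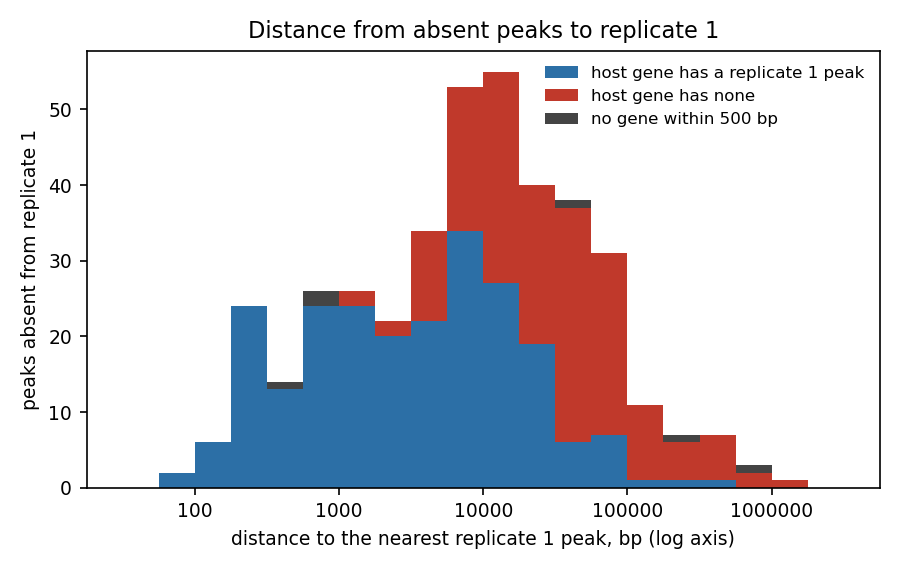
Gap from each replicate 2-only peak to the nearest replicate 1 peak (bp, log axis), split by whether the host gene has a replicate 1 peak elsewhere. Where it has, the median gap is 3344 bp, and where it has none, 27605 bp.

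The farthest peaks lay in stretches where replicate 1 had no call at all. The peak at Aard, chr15:52044968-52045393, was 1154837 bp from the nearest replicate 1 peak, with a fold enrichment of 5.35 (−log10 q 3.46.) A pair of peaks at Prps2, a phosphoribosyl pyrophosphate synthetase gene on the X chromosome, followed at 837939 and 835833 bp with fold enrichments of 7.12 and 5.31. A peak far from genes at chr6:35926721-35927026 was 618818 bp away with 6.71, and one at Ascc3, for a helicase subunit of the ASC-1 complex, was 560573 bp away with 6.52. All 5 were below the leading 10 in strength.

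Host genes, taken as all RefSeq genes with a body less than 500 bp from the peak, were of the same classes as those of the shared peaks. At least 1 protein-coding gene was found for 381 of the 400 (95.2%), compared with 95.2% of the shared peaks. Only a long non-coding RNA was found for 10 (2.50% against 2.39%), only another kind of gene for 3 (0.75% against 0.603%) and no gene for 6 (1.50% against 1.77%). Several hosts were found for 60 (15.0% against 13.9%). In all, the hosts were 426 genes, of which 391 were protein-coding, 25 long non-coding RNAs, 4 miRNAs, 4 pseudogenes and 2 small nucleolar RNAs. Genes that overlap could not be separated, since the strand of the reads is not given in the lists.

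Of the 394 peaks with a host, 231 (58.6%, 53.6 to 63.5%) lay at a gene that had a replicate 1 peak at another place, and 163 (41.4%) at genes with none. The former share fell to 31.8% of 2198 with replicate 1 limited to an equal number of peaks and was 49.9% of 1327 at the fold limit of 4. The corresponding share for the shared replicate 2 peaks, leaving out the replicate 1 peaks they overlap, was 79.6% of 4558 (78.4 to 80.7%). The host had a site called in both replicates for 118 (29.9%) and replicate 1 peaks but no such site for 113 (28.7%). Another replicate 2 peak lay at the host for 146 (37.1%, 32.3 to 42.0%), against 52.1% of the shared peaks (50.7 to 53.6%). Most replicate 2-only peaks thus lay at a gene with no other replicate 2 peak.

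The peaks at hosts with and without a replicate 1 peak were similar in strength. The median fold enrichment was 6.49 at hosts with one and 6.21 at hosts without, and the median −log10 q was 6.43 and 6.25. The median gap was 3344 bp in the former and 27605 bp in the latter. Exactly 1 replicate 1 peak was found at the host of 100 peaks (25.4%) and 5 or more at that of 27 (6.85%).

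The nearest replicate 1 peak lay at the same gene for 210 (52.5%). That was so for 92 of the 99 with a gap of up to 2000 bp (92.9%) and for 50 of the 193 with a gap above 10000 bp (25.9%). Replicate 1 peaks lay on both sides within the gene for 42 (10.5%) and on a single side for 189 (47.2%), which includes 100 whose host had only 1 replicate 1 peak and so could not be flanked. Among the 155 with a known strand, the nearest replicate 1 peak of the gene lay downstream of the replicate 2-only peak in 43 (27.7%, 20.9 to 35.5%) and upstream in the rest. Of the 294 replicate 2-only peaks of known strand, 71.1% lay in the last quintile of the gene body, where little of the gene remains downstream. How far this position sets the share was not tested, and the share was not computed for the shared peaks.

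The replicate 1 peaks beside them were not weak calls. The nearest replicate 1 peak had a median −log10 q of 27.6 and a median fold enrichment of 4.62, while all 22531 replicate 1 peaks had medians of 28.9 and 5.39. The strongest replicate 1 peak at the host had a median −log10 q of 47.1. The −log10 q of the 2 lists cannot be compared directly, since it grows with read depth and the depth of both libraries is unknown.

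Genes with no replicate 1 peak at all numbered 195 among the hosts, 170 of them protein-coding. In the whole data set 4117 genes had a replicate 2 peak and 198 of these had none in replicate 1. A gene without a replicate 1 peak can rarely hold a shared peak, so 195 and 198 are close by the choice of regions. Besides the genes named above, the strongest peaks at hosts without a replicate 1 peak lay at 9 genes of varied roles. Gmds, for the enzyme that makes GDP-fucose precursors, had a fold enrichment of 11.3 with −log10 q at 15.0. Cth, for the cystathionine gamma-lyase that forms cysteine, had 10.7 and 13.5. St6galnac6, a sialyltransferase gene, had 9.84 and 13.2.

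Wdr62, for a spindle pole protein, had 11.1 and 14.3. Zw10, for a kinetochore component, had 10.1 and 13.0. Plekha3, for a lipid-binding protein of the Golgi, had 10.5 and 13.2, and Wdr45b, of the autophagy-related WIPI family, had 8.85 and 12.0. Dtwd1, a tRNA modification gene, had 10.3 and 13.2, and Mrps11, for a protein of the mitochondrial ribosome, had 9.32 and 13.2. Each was at 0 peaks in replicate 1 and had a single peak in replicate 2.

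With 10000 bp as the largest distance between neighbours, 44 of the 400 (11.0%, 8.11 to 14.5%) fell into 21 clusters and 356 stood alone. The clustered share was 6.75% at 2000 bp and 22.2% at 100000 bp, and 22.3% (299 of 1341) at the fold limit of 4 in both lists. With −log10 q of at least 5 it was 8.83% (25 of 283) in both lists and 9.16% (25 of 273) in replicate 2 alone. Of the clusters 19 held 2 peaks and 2 held 3, and in 18 all peaks shared a gene. Clustering was not computed for the shared replicate 2 peaks, so these values do not show whether the replicate 2-only peaks cluster more. By gene, 398 hosts held 1 replicate 2-only peak, 26 held 2 and 2 held 3 or more, namely Rian with 4 and Pidd1 with 3. The fourth Rian peak lay just past the cluster distance from the other 3, which spanned 4863 bp.

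Pidd1, which encodes a death-domain protein that activates caspase-2, showed the alternation of both kinds of peak. Its replicate 2-only peaks at chr7:141439142-141439689, chr7:141441667-141442033 and chr7:141442211-141442576 had fold enrichments of 6.45, 6.83 and 8.07. Between and beside them were 3 sites called in both replicates, with 3.11, 2.59 and 3.43 in replicate 1 and 9.13, 5.91 and 5.69 in replicate 2. In replicate 2 the unshared sites were thus within the range of the shared ones.

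Pairs were found in genes without and in genes with replicate 1 peaks. Ftsj1, Prps2, Acp5 (an acid phosphatase of osteoclasts), Actr8 (a subunit of INO80), Mid1ip1 (a regulator of lipid synthesis) and Dapk3 (a death-associated kinase) each held 2 and had 0 replicate 1 peaks. At Acp5 the fold enrichments were 8.49 and 6.34, at Mid1ip1 6.38 and 5.35, at Actr8 5.47 and 7.48 and at Dapk3 7.34 and 5.14. At Cln6, a lysosomal storage disease gene, 7.84 and 5.61 stood beside 1 replicate 1 peak at the other end of the gene with 7.48. At Slc1a5, a glutamine transporter gene, 7.07 and 5.17 lay between 2 sites called in both replicates.

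By chromosome, replicate 2-only peaks were found on 20 of the 22 sequences with replicate 2 peaks. The largest number was on chromosome 7, with 48 of 552 (8.70%), followed by chromosome 8 with 36 of 420 (8.57%). Among those 20, the share was lowest on chromosome 11, with 14 of 395 (3.54%, 1.95 to 5.88%), and highest on chromosome 16 with 21 of 177 (11.9%, 7.50 to 17.6%). These are the extremes of many sequences and were not tested.

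The position within genes differed from that of the shared peaks more than the class of gene did. The summit lay in exactly 1 protein-coding gene for 365 of the 400, and the strand of that gene was known for 294. Within 1000 bp of the 3′ end of the gene body lay 116 of the 294 (39.5%, 33.8 to 45.3%), compared with 695 of 3281 shared peaks (21.2%, 19.8 to 22.6%). Within 1000 bp of the start lay 10 (3.40%, 1.64 to 6.17%), compared with 241 (7.35%, 6.48 to 8.29%).

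Seen along the body of the gene, the last quintile held 71.1% (65.5 to 76.2%) of the replicate 2-only peaks and 58.9% (57.2 to 60.6%) of the shared peaks. The median distance from the summit to the 3′ end was 1313 bp (quartiles 550 and 4044) against 2542 bp (1140 and 7547). The lengths of the gene bodies were alike, with medians of 25816 and 25719 bp. Turned around, of the replicate 2 peaks within 1000 bp of a 3′ end 14.3% (12.0 to 16.9%) were absent from replicate 1, and of those farther away 6.44% (5.55 to 7.42%).

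The share near the 3′ end was similar whether or not the gene was called elsewhere in replicate 1, being 66 of 171 (38.6%) at hosts with a replicate 1 peak elsewhere and 50 of 123 (40.7%) at hosts without. It did depend on the definition of a shared peak. Where both peaks had to overlap by 50% of their length, the share was 20.1% for the peaks then called unshared and 24.6% for the others, so the order turned. Several named peaks lay at such ends, among them those of Gmds, Mrps11, Zw10 and Ascc3. The gene table used here holds no exons, so untranslated regions and stop codons could not be placed.

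**Figure D5:**
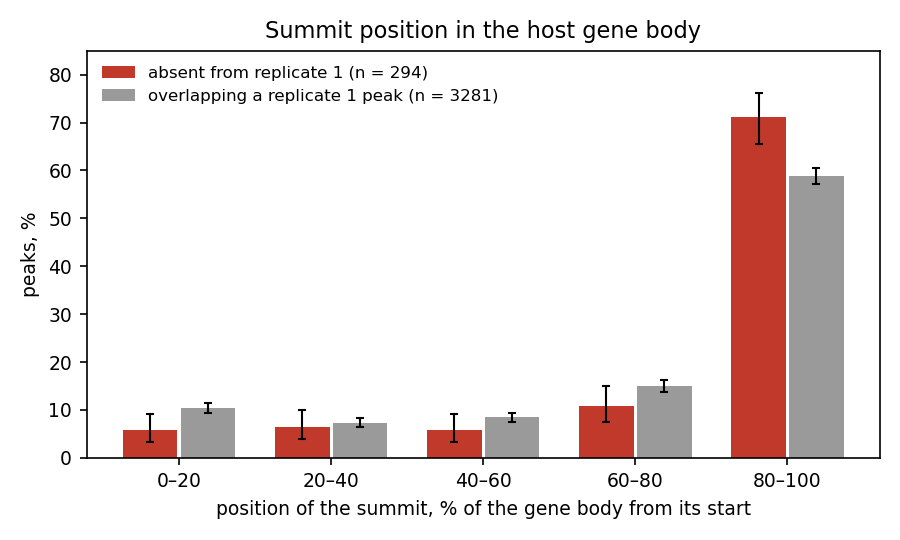
Summits along protein-coding gene bodies of known strand, as the share of peaks (y axis, percent) in each quintile of the body from the start to the 3′ end (x axis), for the 294 replicate 2-only and the 3281 shared peaks; bars are 95% exact binomial intervals. The last quintile holds 71.1% of the former and 58.9% of the latter.

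Genes of the m6A pathway held none of the replicate 2-only peaks. Of 8 genes of the methyltransferase complex 6 had a replicate 1 peak, 3 a replicate 2 peak and 0 a replicate 2-only peak. Of 11 readers and erasers, which bind or remove the mark, 8 had a replicate 1 peak and 0 a replicate 2 peak. Over all protein-coding genes, 391 of the 3704 with a replicate 2 peak (10.6%) held a replicate 2-only one.

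Among lists of developmental regulators, of 14 naive pluripotency genes 3 had a replicate 2 peak, and 1, Nr0b1 (Dax1, a nuclear receptor of the naive state), held a replicate 2-only peak with a fold enrichment of 4.16, while its replicate 1 peak lay at the other end of the gene with 2.20. Of 14 general pluripotency genes 1 had a replicate 2 peak and 0 a replicate 2-only one. Of 16 formative and lineage markers 10 had a replicate 2 peak and 2 a replicate 2-only one.

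Those 2 were endoderm transcription factor genes. Gata6 had a replicate 2-only peak of 9.34 near the end of the gene, beside 2 sites called in both replicates with 6.88 and 4.65 in replicate 1 and 6.47 and 18.7 in replicate 2. Sox7 had a replicate 2-only peak of 6.31 beside a site with 25.5 in replicate 1 and 21.4 in replicate 2. In both genes the unshared peak was lower than the highest shared one.

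Other lists gave single examples. Of 22 other imprinted genes 7 had a replicate 2 peak, and 1, H19, a maternally expressed long non-coding RNA that is also the host of Mir675, had a replicate 2-only peak at chr7:142577633-142577945 with a fold enrichment of 8.82 (−log10 q 10.4.) H19 had 0 replicate 1 peaks, and the nearest was 89093 bp away. Of 21 abundant long non-coding RNAs 9 had a replicate 1 peak and 1 had a replicate 2 peak. The latter was Snhg14, a long host transcript of small nucleolar RNAs, and its peak of 7.65 was a replicate 2-only one. Snhg14 also had 1 replicate 1 peak with a fold enrichment of 2.22, 12769 bp away.

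Of 37 signalling genes 10 had a replicate 2 peak and 1 a replicate 2-only one, at Lrp5, a Wnt co-receptor gene. It had a fold enrichment of 11.3 with −log10 q at 14.2, with 6 replicate 1 peaks of 2.68 to 5.06 in the same gene. Of 25 chromatin and Polycomb genes and 17 immediate early genes, 8 and 9 had a replicate 2 peak and 0 a replicate 2-only one. With so few genes per list, these counts are given beside the 10.6% of all protein-coding genes and were not tested against it.

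The labelled cell type was looked up in the same way. Of 16 embryonic stem cell marker genes 11 had a replicate 1 peak and 2 a replicate 2 peak, and those without a replicate 1 peak were Pou5f1, Tfcp2l1, Dppa3, Lin28a and Utf1. Of 6 fibroblast marker genes 3 had a replicate 1 peak and 2 a replicate 2 peak, while Col1a1, Col1a2 and Col3a1 had none in replicate 1. A peak needs both the transcript and the mark, so that a gene without a peak may still be expressed.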

How the data were processed

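m6A-RIP-seq of mESCs was analysed from the peak lists of the 2 wild-type IPs. The authors purified poly(A) RNA on oligo-dT, used 30 ng of immunoprecipitated and 200 ng of input RNA per library, and called peaks of each IP against input with MACS2 at default settings, unpooled. The submitters' processing notes also name Bowtie, SAMtools and mm10. The input used and the handling of duplicates are not given in the sources used here.

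The deposited values are a score, which was not used, a fold enrichment (a ratio to background), and −log10 of a p-value and a q-value for each summit. Read counts were not used here, so depth is unknown.

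Peaks of both lists were compared by interval overlap (1 bp) and joined to 49997 RefSeq gene bodies of GRCm38.p6, 21900 of them protein-coding, with a gap under 500 bp. Strand came from the RefSeq promoter table and was known for 17492 protein-coding genes. Clusters joined neighbours within 10000 bp. Intervals are 95% exact (Clopper-Pearson) and cover counting error only; peaks are not replicates. Equal values were ordered by their place in the list when deciles were formed. The regions, the 11 gene lists (191 genes, 191 matched) and the alternatives were chosen with earlier results of these data known, so the lists give no independent support.

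Genes named are the hosts of the 10 peaks leading by −log10 q or fold enrichment, of the 5 leading clusters and genes, of the 5 farthest and 5 nearest peaks, of the 15 strongest without a replicate 1 peak, and list genes with a replicate 2-only peak. A gene that this rule names is not reported here. Other clustered genes and those with sequences were named after their values were seen. Overlap and distance code was tested on simulated peaks. Alternatives were stricter thresholds, a shortened replicate 1 list, and other overlaps, distances and gene assignments. The software was Python 3.11.15, with scipy 1.17.1 for intervals, pandas 2.3.3 and numpy 2.4.6 for tables, and matplotlib 3.10.9 for plots.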

Additional observations from a re-analysis of the deposited data

How the results depend on the processing

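The count of 400 replicate 2-only peaks became 1341 with a fold enrichment of at least 4 in both lists, 2238 with the replicate 1 list shortened to as many of its strongest peaks as replicate 2 has, 2123 under a 50% reciprocal overlap and 1281 when summits had to lie within 100 bp. It was 283 and 273 with a −log10 q of at least 5 in both lists or in replicate 2 alone, and 398 and 355 when a gap of up to 100 or 500 bp counted as shared. The share of peaks whose host had a replicate 1 peak elsewhere (58.6%) was 49.9% at the fold limit, 31.8% with the reduced list and 64.9% with genes up to 2000 bp away, and the median gap (9724 bp) was 15445 and 40417.5 bp for the former 2. Clustered peaks (44) numbered 25 at either q limit, 299 at the fold limit, 27 at 2000 bp and 89 at 100000 bp.

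The median fold enrichment was 7.12 and 7.08 at the q limits (7.25 for the shared peaks in both), 5.79 at 50% overlap (6.83), 6.22 at the fold limit (7.13) and 6.26 with the reduced list (6.53), and the median −log10 q was 7.83 and 7.73 at the q limits and 7.80 at the fold limit. For the share near the 3′ end (39.5%), alternatives were chosen after seeing the data. It was 32.8% and 33.7% at the q limits (22.3% for the shared peaks in both), 33.3% at the fold limit (16.8%), 28.5% with the reduced list (18.0%), 45.6% among peaks wider than the median (22.9%), and 20.1% at 50% overlap, where that of the others was 24.6%. The cause of these shifts was not tested, beyond the fewer peaks that stricter limits leave. No paired analysis was possible because only 1 group has peak lists here, and leaving out a replicate leaves no comparison. Unknown depth limits every comparison of the lists.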

Other observations

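Among solute carrier genes, named by the prefix Slc, 12 of the 94 with a replicate 2 peak (12.8%) held a replicate 2-only peak, and 2 of those 12 had no replicate 1 peak. Slc1a3, a glutamate transporter gene chosen after its values were seen, held 2 of them with fold enrichments of 8.74 and 10.6, and Slc15a4, a lysosomal peptide and histidine transporter gene, held 2 with 8.25 and 7.82. Among zinc finger genes with the prefix Zfp, 8 of 148 (5.41%) held one. Both families were picked after the values were seen, and 10.6% of all protein-coding genes with a replicate 2 peak held one.

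The 6 peaks with no gene within 500 bp ranged widely in strength. The strongest, at chrX:64497273-64497882, had a fold enrichment of 8.67 (−log10 q 9.69) and lay 224416 bp from the nearest replicate 1 peak. Those at chr17:88102443-88102791 and chr6:35926721-35927026 had fold enrichments of 7.02 and 6.71, both with −log10 q at 6.43, and lay 36302 and 618818 bp away. The other 3 lay close to a replicate 1 peak, at 646 bp on chromosome 19 (fold enrichment 6.47, −log10 q 6.43), 746 bp on chromosome 2 (5.91 and 4.17) and 416 bp on chromosome 11 (4.01 and 1.56).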
